A study of Mus musculus with 2 samples.

Results

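The primitive endoderm transcription factors Gata4, Gata6, Sox7, Sox17, Foxa2, Foxq1 and Hnf4a and the receptor gene Pdgfra were followed in 1 wild-type and 1 Setd2 knockout library of mouse embryonic stem cells. They were chosen by gene symbol, and 7 of the 8 have a row among the 17817 genes of the table. Foxq1 is not analysed here. Both libraries came from 129SV/C57BL/6 cells at passage 10 to 12, grown on feeder cells and then passaged on gelatin to take most feeder cells away. The knockout group is labelled as a knockout of Setd2, whose product adds the third methyl group to lysine 36 of histone H3, and neither group received a treatment. How Setd2 was disrupted and how many clones stand behind each library are not given in the sources used here. Each genotype has 1 library, so no test was possible, and every difference below describes these 2 libraries only.

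The primitive endoderm is the layer of the blastocyst that faces the cavity and goes on to form the visceral and parietal endoderm of the yolk sac. It separates from the epiblast when FGF4, made by epiblast precursors, acts through FGF receptors and ERK. GATA6 and NANOG oppose each other in that choice, PDGFRA is an early surface marker of the GATA6-positive cells, and GATA4, SOX17 and SOX7 follow. FOXA2 and HNF4A belong to the later visceral endoderm. Embryonic stem cell cultures hold a minor share of cells with primitive endoderm markers.

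All 7 genes were lower in the knockout library. Gata6 stood at 15.9% of its wild-type level, Sox7 at 28.0%, Pdgfra at 33.5% and Hnf4a at 36.5%, while Gata4 was least apart at 81.9%. Foxa2 and Sox17 were lower as well, from few reads. Among the 15885 genes averaging at least 0.1 CPM over the 2 libraries, 43.8% were lower in the knockout library and 4.38% stood at 50% of the wild-type level or under, as 6 of the 7 genes did. CPM is the number of read equivalents over a gene scaled to a total of 1000000 over all genes, and a read equivalent is 76 sequenced bases. In bulk RNA, fewer cells of a type and less RNA per cell cannot be told apart.

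**Figure D1:**
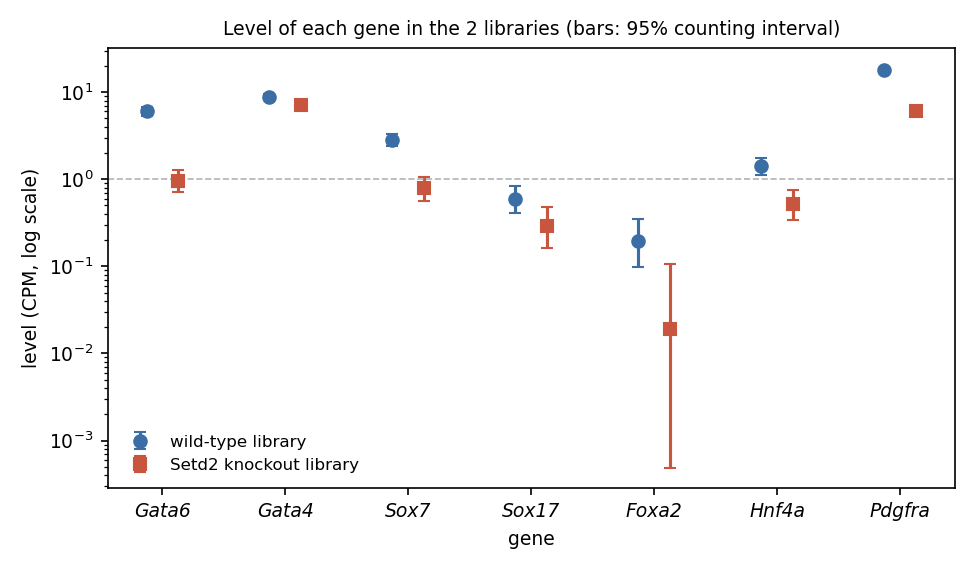
Level of each gene (CPM, log axis) in the wild-type library (circles) and the Setd2 knockout library (squares), with bars for the 95% counting interval and a dashed line at 1 CPM. Each square lies under its circle, by least for Gata4 (8.80 against 7.21 CPM) and with the widest interval for Foxa2, which had 1 read equivalent in the knockout library.

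The libraries held 56129838 read equivalents in the wild type and 52041677 in the knockout, so that 1 CPM stood for 56.1 and 52.0 of them. Setd2 itself was at 452 CPM in wild-type cells against 174 CPM in knockout cells, a ratio of 38.5%, so transcript remained in the library labelled knockout and these values do not by themselves verify that label. The pluripotency genes Pou5f1 and Sox2 stood at 558 and 458 CPM in wild-type cells against 544 and 417 CPM in knockout cells. The libraries also differed over the Y chromosome and chromosome 8. The 5 Y-linked genes compared had a median log2 fold of 6.20, and none was lower in the knockout library. Ddx3y, on the Y chromosome, was at 0.445 CPM in wild-type cells against 176 CPM in knockout cells. Genes of chromosome 8 had a median log2 fold of -0.35, against 0.04 to 0.13 for the 5 chromosomes that carry the 7 genes. With 1 library of each genotype, the effect of the genotype and other differences between the 2 lines cannot be told apart in any value below.

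The largest difference among the transcription factors was that of Gata6. GATA6 is a zinc finger factor that is needed for the primitive endoderm to form. Gata6 (gene number 14465, mm9, chr18:11052508-11085633) was at 6.00 CPM in wild-type cells (from 337 read equivalents) against 0.953 CPM in knockout cells, from 49.6. The ratio was 15.9%, with a 95% counting interval of 11.6 to 21.6%. The log2 fold, taken as the log2 of (knockout + 0.5)/(wild type + 0.5) on CPM, was -2.16. It was the 59th lowest of 13523 genes averaging at least 1 CPM. Such intervals hold counting error alone, since each genotype has 1 library. The reads carry no molecular identifiers and do not stand for separate molecules, so the intervals may be too narrow even for that error.

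Its relative Gata4 differed far less. GATA4 binds the same kind of DNA site and acts with GATA6 in extraembryonic endoderm and heart. Gata4 (gene number 14463, chr14:63817752-63864097) was at 8.80 CPM in wild-type cells against 7.21 CPM in knockout cells. The ratio was 81.9% (interval 71.4 to 93.8%) and the log2 fold -0.27, with 19.8% of the genes compared lower still. Of the reads over the 2 genes, scaled to CPM, Gata6 took 40.5% in wild-type and 11.7% in knockout cells. The counting intervals of the Gata4 and Gata6 ratios did not overlap. The table's row for Gata4 ends 26432 bases short of the GENCODE gene model, so exons of the model that lie upstream of the row are not in these values.

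Both SOX factors of subgroup F were lower, from unequal depths. SOX7 and SOX17 carry an HMG box and are also known from endothelial cells. Sox7 (gene number 20680, chr14:64562543-64569569) was at 2.81 CPM in wild-type cells against 0.788 CPM in knockout cells. This is a ratio of 28.0% (interval 19.3 to 39.7%) and a log2 fold of -1.36. Sox17 (gene number 20671, chr1:4481009-4486494) was at 0.588 CPM in wild-type cells (from 33.0 read equivalents) against 0.287 CPM in knockout cells, from 14.9. Its ratio was 48.9% with a wide interval, 24.7 to 92.8%, which overlapped that of Sox7. Sox7 and Gata4 lie 698 kb apart on chromosome 14, with ratios whose counting intervals did not overlap.

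The visceral endoderm factors Foxa2 and Hnf4a were the least expressed beside Sox17. FOXA2 is a forkhead factor of visceral and definitive endoderm, and HNF4A a nuclear receptor of visceral endoderm and liver. Hnf4a (gene number 15378, chr2:163372924-163398643) was at 1.42 CPM in wild-type cells against 0.518 CPM in knockout cells, a ratio of 36.5% (interval 22.6 to 56.9%). Foxa2 (gene number 15376, chr2:147868614-147872705) had 11.0 read equivalents in wild-type cells and 1.00 in the knockout library. That ratio was 9.81%, with an interval of 0.228 to 67.5%, so its size was not determined at this depth. With the pseudocount, the log2 folds were -0.92 for Hnf4a, -0.47 for Sox17 and -0.42 for Foxa2.

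The sequence around annotated start sites of Foxa2 and Hnf4a is given here as a description. Which of these starts the cells used was not tested. The windows are from RefSeq (GRCm38.p6), run from 250 bases before to 50 bases after a start, and were found for 3 of the 7 genes, the third being Pdgfra. Hnf4a has 2 start sites 40298 bases apart, the upstream one at chr2:163506607-163506906 and the downstream one at chr2:163546905-163547204, both on the plus strand. The Foxa2 window shown is the most downstream of 3, chr2:148045415-148045714 on the minus strand. Capitals mark the letters of the motifs searched.
Hnf4a, upstream start: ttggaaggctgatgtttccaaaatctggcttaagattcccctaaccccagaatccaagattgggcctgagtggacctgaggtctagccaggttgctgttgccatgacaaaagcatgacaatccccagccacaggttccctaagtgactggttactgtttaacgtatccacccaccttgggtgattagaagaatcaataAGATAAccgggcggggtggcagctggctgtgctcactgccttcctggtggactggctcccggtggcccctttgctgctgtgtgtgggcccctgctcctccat
Hnf4a, downstream start: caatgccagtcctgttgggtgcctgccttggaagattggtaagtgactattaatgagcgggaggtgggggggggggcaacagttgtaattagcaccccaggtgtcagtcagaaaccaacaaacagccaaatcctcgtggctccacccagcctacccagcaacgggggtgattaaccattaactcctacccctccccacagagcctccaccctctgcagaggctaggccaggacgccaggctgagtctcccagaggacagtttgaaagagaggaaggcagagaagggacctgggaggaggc
Foxa2, downstream start: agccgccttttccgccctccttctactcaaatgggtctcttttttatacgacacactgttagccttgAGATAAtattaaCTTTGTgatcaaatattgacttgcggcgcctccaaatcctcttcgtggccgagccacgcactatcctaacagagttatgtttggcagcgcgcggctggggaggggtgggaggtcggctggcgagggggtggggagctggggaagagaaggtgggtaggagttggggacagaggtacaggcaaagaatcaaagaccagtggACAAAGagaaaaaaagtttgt
The GATA words searched on both strands were AGATAA and, with other outer letters, also AGATAG, then TGATAA, and as the last of the set TGATAG. Of these AGATAA stands at position -52 of the upstream Hnf4a window and at -183 of the Foxa2 window shown. The Foxa2 windows further upstream, the downstream Hnf4a window and the Pdgfra window hold no GATA word. At least 1 GATA word is in 29.8% of all 32851 promoter windows. The SOX words ACAATG and ACAAAG are in 28.6% of windows. Of these ACAAAG stands in the Foxa2 window shown at -171, on the other strand, and at 30. Neither SOX word is in another window of these genes. The forkhead word TGTTTAC (3.65% of windows) and the HNF4 word CAAAGTCCA (0.475%), which can overlap ACAAAG, are in none of the 6 windows of Foxa2, Hnf4a and Pdgfra, a count of 0. A match of letters is a description and not a site of binding. The table's row for Hnf4a begins 40380 bases inside its GENCODE gene model, close to the 40298 bases between the 2 RefSeq starts. Reads from exons upstream of the row are not in its value, so the upstream start may lie outside it.

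PDGFRA is the receptor for PDGF-A and PDGF-C homodimers, a tyrosine kinase at the cell surface. Pdgfra (gene number 18595, chr5:75548316-75594229) had the deepest coverage of the 7 genes, with 1005 read equivalents in wild-type cells and 312 in the knockout library. Its level was 17.9 CPM in wild-type and 6.00 CPM in knockout cells, a ratio of 33.5% (interval 29.4 to 38.1%). The log2 fold of -1.50 was the 106th lowest of the genes compared. The RefSeq window at its start, chr5:75152001-75152300 on the plus strand, holds 5 CpG pairs against a median of 7 over all windows, and 51.0% of its bases are G or C. The window is shown in lower case throughout, since it holds none of the motif words.
Pdgfra, start: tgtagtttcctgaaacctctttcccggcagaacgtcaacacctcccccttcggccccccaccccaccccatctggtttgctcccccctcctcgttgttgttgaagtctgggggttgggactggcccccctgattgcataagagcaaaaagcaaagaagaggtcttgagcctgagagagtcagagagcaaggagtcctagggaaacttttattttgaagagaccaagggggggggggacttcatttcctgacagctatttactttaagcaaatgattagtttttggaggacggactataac
Ligand genes of the receptor differed less. Pdgfa was at 17.7 CPM in wild-type cells against 17.8 CPM in knockout cells, and Pdgfc at 11.7 and 8.51 CPM. Of the 6 PDGF ligands and receptor relatives averaging at least 1 CPM, 0 were at least 2-fold lower or higher, and the median log2 fold was -0.02.

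Of the 7 genes, 4 reached a mean of 1 CPM, namely Gata4, Gata6, Sox7 and Pdgfra. Of these, 3 were at least 2-fold lower by the log2 fold, where 2.11% of all genes compared were, and 0 were at least 2-fold higher, where 1.76% were. Gata6 and Sox7 reached that mean only through the wild-type library, so the count of those that passed supports nothing by itself. Hnf4a, Sox17 and Foxa2 stayed under it. All 3 had ratios under 50%, as 14.7% of the 2362 genes with a mean of 0.1 to 1 CPM did. The bounds of that band were chosen after the values were seen.

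**Figure D2:**
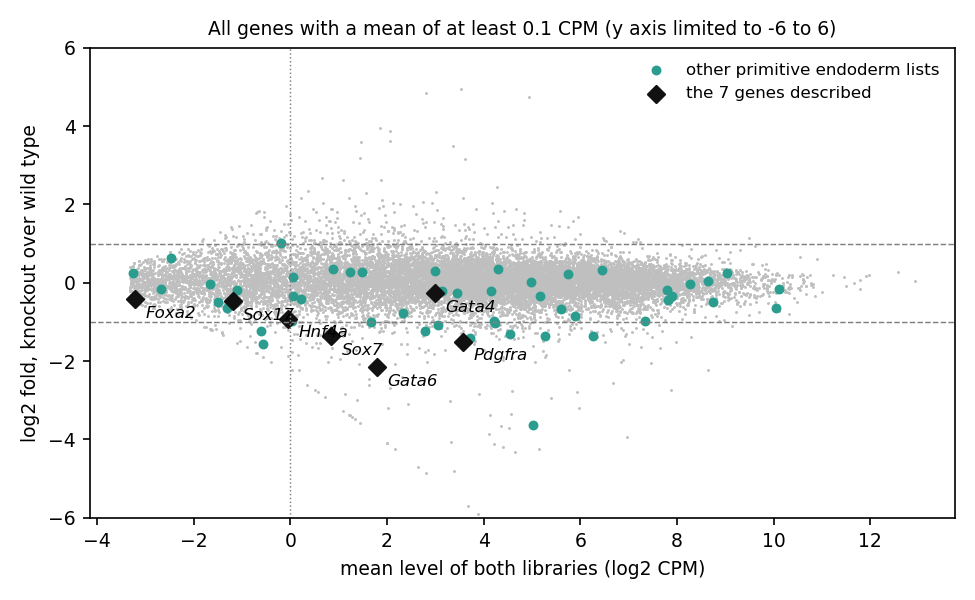
Log2 fold (knockout over wild type) against the mean level of both libraries (log2 CPM) for genes averaging at least 0.1 CPM, with dashed lines at 2-fold and a dotted line at 1 CPM. Diamonds are the 7 genes described, all under 0, and green points are the other primitive endoderm genes, of which Cubn lies lowest at -3.62.

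Levels can be compared between genes only per length, here as CPM per kb of exon inside the row. In the wild-type library the order was Pdgfra at 2.66 CPM per kb, Gata4 at 2.42, Gata6 at 1.88, Sox7 at 0.861, Hnf4a at 0.311, Sox17 at 0.186 and Foxa2 at 0.0827. Neighbouring pairs in that order with overlapping counting intervals were Pdgfra with Gata4, Hnf4a with Sox17, and Sox17 with Foxa2. In the knockout library Gata4 came first at 1.98 CPM per kb, then Pdgfra at 0.890, Gata6 at 0.298, Sox7 at 0.241, Hnf4a at 0.113, Sox17 at 0.0911 and Foxa2 at 0.00811. There the intervals of Gata6 and Sox7 overlapped, and so did those of Hnf4a and Sox17. On the same scale the epiblast factor gene Nanog was at 163 CPM per kb in wild-type cells against 229 CPM per kb in knockout cells, far above each of the 7 genes.

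Most close relatives of the 7 genes did not share their direction. Of 12 relatives in the GATA, SOX subgroup F, FOXA, HNF4 and PDGF receptor families, 11 were higher in the knockout library, where 56.2% of genes averaging at least 0.1 CPM were. Csf1r and Hnf4g, counted among the 11, averaged less than 0.1 CPM and lie outside that share. The counting interval lay wholly above 100% for 7 of them, as it did for 38.6% of those genes. Foxa1, a forkhead gene of endoderm derivatives, was at 0.410 CPM in wild-type cells against 1.34 CPM in knockout cells, 3.28-fold higher (interval 2.02 to 5.51). Pdgfrb, the second PDGF receptor gene, was at 6.72 and 10.7 CPM, and the related kinase gene Kit at 87.8 and 136 CPM. Gata2, a blood and trophoblast factor gene, was at 2.39 and 3.07 CPM, and Gata3 at 0.499 and 0.743 CPM. Gata1 was at 1.09 and 1.46 CPM, and Foxa3 at 1.56 and 2.13 CPM. Gata5 rested on 2.12 and 17.0 read equivalents and Hnf4g on 1 and 3. Flt3 was at 0.465 and 0.806 CPM. Csf1r had 4 read equivalents in each library, and counts as higher only through the smaller total of the knockout library. Sox18 was the exception, at 0.499 CPM in wild-type cells against 0.211 CPM in knockout cells, a ratio of 42.4% (interval 19.0 to 87.8%). In the SOX subgroup F all 3 genes were thus lower, Sox17 and Sox18 from few reads.

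**Figure D3:**
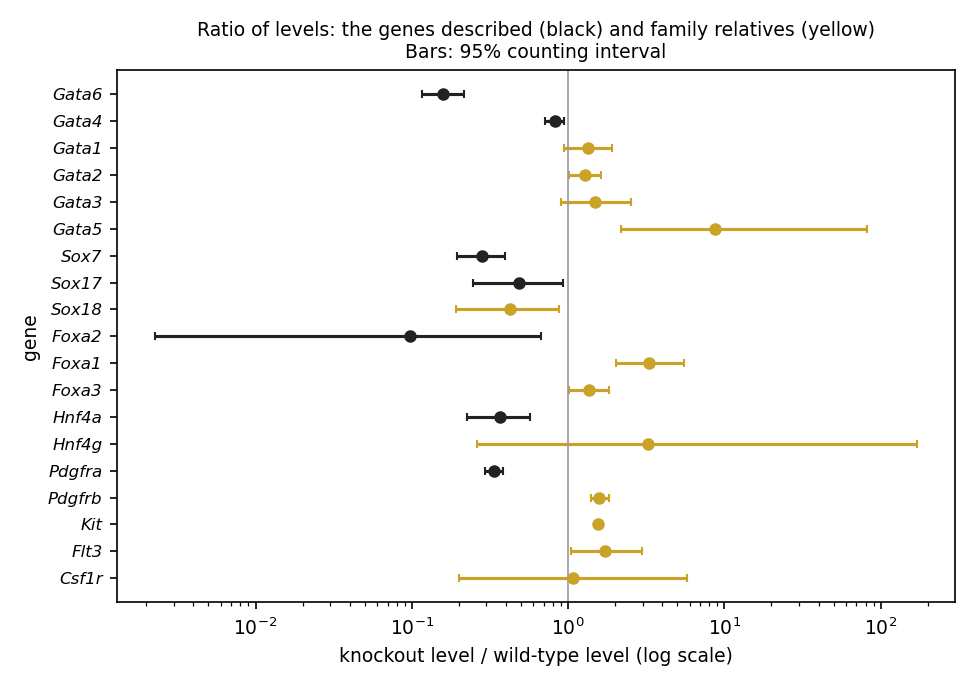
Knockout level divided by wild-type level (log axis) for the 7 genes (black) and 12 family relatives (yellow), with bars for the 95% counting interval and a line at a ratio of 1. The black points lie left of the line, and of the yellow points Sox18 alone does.

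Other transcription factor genes of primitive and visceral endoderm were a mixed group. Of 16 genes listed, 9 had a mean of at least 1 CPM, 0 of them at least 2-fold lower or higher, with a median log2 fold of -0.33 against 0.05 for all genes compared. Klf5, Sall4 and Nr0b1, which stem cells express as well, had log2 folds of -0.44, -0.48 and -0.67.

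Genes for receptors and endocytic proteins had the lowest median of the endoderm lists. Of 12 genes averaging at least 1 CPM, 5 were at least 2-fold lower and 0 higher, where 2.11% and 1.76% of all genes compared were. The median was -0.70, and it was -0.38 with no floor and -1.05 with a floor of 5 CPM. By summed level, which a few abundant genes set, the list stood at 85.4% of wild type, against 65.1% for the secreted products, 72.6% for the transcription factors and 81.9% for the basement membrane genes. Cubn, which encodes the endocytic receptor cubilin, was at 60.9 CPM in wild-type cells against 4.50 CPM in knockout cells. The thrombomodulin gene Thbd was at 19.2 and 6.94 CPM, and the FGF receptor genes Fgfr3 and Fgfr4 at 9.90 and 3.94 CPM and at 11.5 and 5.21 CPM. Secreted products were thinly measured, with 6 of 18 listed genes over 1 CPM, 1 of them at least 2-fold lower and a median of -0.37 (-0.10 with no floor, -0.88 with a floor of 5 CPM). The transferrin gene Trf was at 33.4 and 13.2 CPM, the Nodal antagonist gene Lefty1 at 24.6 and 12.3 CPM, and Apoa2 at 6.48 and 3.59 CPM, while Fst was at 2.06 and 2.62 CPM. Afp, a product of mature visceral endoderm, was listed at 0 in both libraries. Of 12 basement membrane genes 2 were at least 2-fold lower, the type IV collagen genes Col4a1 and Col4a2, both on chromosome 8, and the median was -0.27. Lama1, a laminin chain gene, was at 214 and 109 CPM, and the collagen chaperone gene Serpinh1 at 76.2 and 42.4 CPM. Over these 4 lists together 8 of 39 genes were at least 2-fold lower, 0 higher, and the median was -0.33. None of the 7 genes lies on chromosome 8.

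The FGF route that acts upstream of GATA6 did not stand lower as a list. Its 16 genes from ligand to ERK had a median of 0.02, with 0 at least 2-fold lower or higher, and the median was -0.04 under 2 of the 3 rescalings. Fgfr1 is the one FGF receptor gene on that list: Fgfr2, Fgfr3 and Fgfr4 were counted with the endoderm receptors, where Fgfr3 and Fgfr4 were at least 2-fold lower, as given above. Fgf4 was at 292 CPM in wild-type cells against 275 CPM in knockout cells, and Fgfr1, which lies on chromosome 8, at 214 and 152 CPM. Map2k2 was at 36.0 and 24.1 CPM, and the thinly read Fgf5 at 0.906 and 1.87 CPM. Of 13 epiblast transcription factor genes, 2 were at least 2-fold lower, Klf2 and Zfp42, both on chromosome 8, and the median was -0.19. For Zfp42 55% of exon windows match elsewhere. Nanog was at 221 CPM in wild-type cells against 310 CPM in knockout cells, a ratio of 140% (interval 137 to 144%), and 25% of its exon windows match another place in the genome. Tcl1 was at 22.3 and 15.0 CPM.

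**Figure D4:**
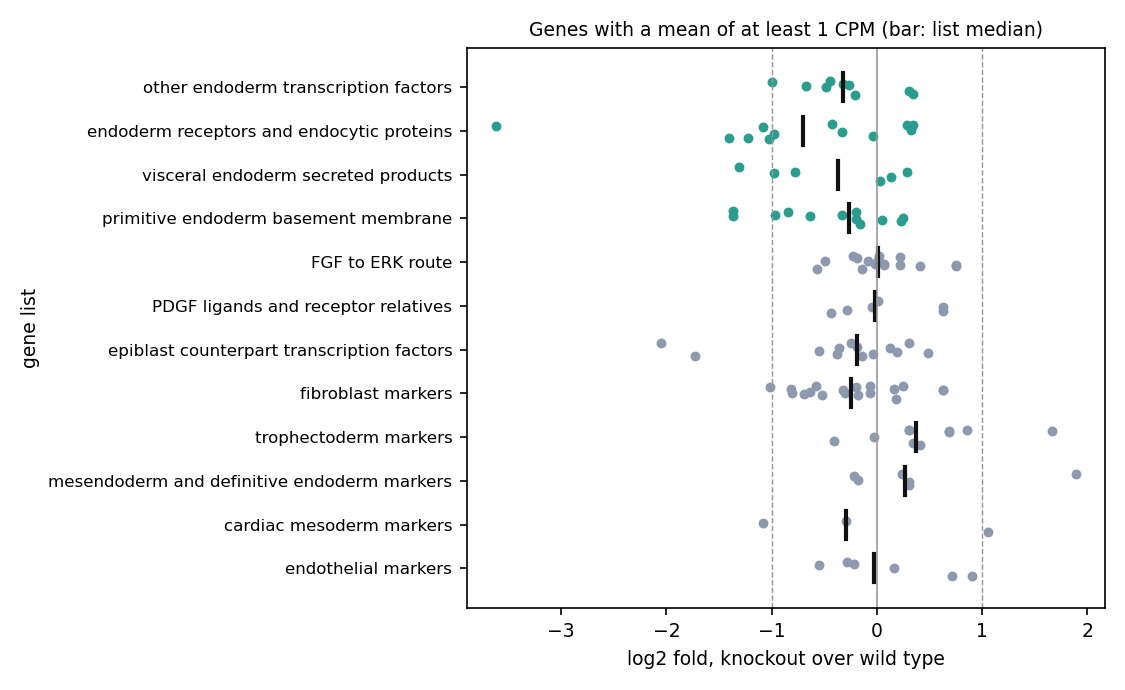
Log2 fold of every gene averaging at least 1 CPM in each gene list, with a black bar at the list median and dashed lines at 2-fold. The 4 endoderm lists (green) have medians of -0.33, -0.70, -0.37 and -0.27, and the FGF to ERK route lies around 0.

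Pdgfra is also known from fibroblasts, Gata4 and Gata6 from heart, and Sox7 and Sox17 from endothelium, so markers of these cells were read beside them. Of 24 fibroblast markers, 17 were lower in the knockout library, where 43.8% of genes averaging at least 0.1 CPM were. Some of the 24 lie under that mean. The summed level of the 24 was 368 CPM in wild-type and 294 CPM in knockout cells, or 79.7% of the former. Among the defining fibroblast genes Col1a1 was at 45.0 and 31.3 CPM, Prrx1 at 5.97 and 2.70 CPM, and Dcn at 0.699 and 0.340 CPM. Lum was barely read, at 0.0713 CPM in wild-type cells and listed at 0 in the knockout library. The counting interval of its ratio was 0 to 163%, so no difference was determined for Lum. Of the 18 fibroblast genes over 1 CPM, 1 was at least 2-fold lower and the median was -0.25, with Lox at -0.82, Fbln2 at -0.80 and Col5a2 at -0.69. Others of the list were higher, among them Tagln at 21.1 and 33.0 CPM and Pdgfrb as given above, with Twist1, Snai2 and Col6a1 at 124%, 118% and 115% of wild type. The part of feeder fibroblasts in the Pdgfra result was not tested. The cardiac list of 11 genes summed to 21.1 CPM in wild-type cells against 17.0 CPM in knockout cells. Its defining genes Nkx2-5 (0.366 and 0.346 CPM), Tbx5 (0.0701 and 0.0665 CPM) and Tnnt2 (0.075 and 0.0718 CPM) were near 0 in both, and the 3 genes over 1 CPM were Tbx20 (-1.08), Myh6 (-0.29) and Mef2c (1.06). For Myh6 35% of exon windows were shared. The 11 endothelial markers summed to 107 and 108 CPM, with 0 of 6 genes over 1 CPM at least 2-fold apart and a median of -0.03. Their log2 folds ran from -0.55 for Esam to 0.90 for Flt1, with Tek at -0.29 and Erg at 0.71. Cdh5, a defining endothelial gene, was at 0.638 and 0.173 CPM from few reads, and was named after its values were seen. It lies on chromosome 8, whose genes had a median log2 fold of -0.35. The part of cardiac or endothelial cells was not tested.

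Few neighbours of the 7 genes on their chromosomes were as far as 2-fold apart. The same held for all genes compared, of which 2.11% were that far down and 1.76% that far up. Of 41 neighbouring genes within 500 kb averaging at least 1 CPM, 1 was at least 2-fold lower, 1 at least 2-fold higher, and the median log2 fold was 0.09. The 5 neighbours of Gata6 were all above 0, from 0.07 to 0.95, and the nearest, the ubiquitin ligase gene Mib1, lay 240 kb away at 192 CPM in wild-type cells against 288 CPM in knockout cells. Chic2, 108 kb before Pdgfra, was at 10.4 and 11.1 CPM, and Lnx1, 474 kb before it, was at 1.76 and 6.13 CPM. Kit lies 377 kb beyond Pdgfra and was higher, as given above. Around Sox7 the nearest gene, the telomerase inhibitor gene Pinx1, was at 21.5 and 23.9 CPM, and the DNA glycosylase gene Neil2 beside Gata4 was at 4.02 and 4.72 CPM. Next to Hnf4a, Ttpal was at 25.1 and 22.0 CPM, and R3hdml, 44.6 kb away on the other side and under 1 CPM on average, was at 0.954 and 0.254 CPM, a log2 fold of -0.95 that lies under that of Hnf4a. The 1 lower neighbour was Thbd, 357 kb from Foxa2 and itself one of the endoderm receptors listed above. The 8 neighbours of Sox17 lie on 1 side of it, with log2 folds from -0.48 to 0.62 and a median of 0.21. The lowest of them is also the nearest, a predicted gene 25.3 kb away at 13.2 and 9.33 CPM. Sox17 itself had a log2 fold of -0.47.

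**Figure D5:**
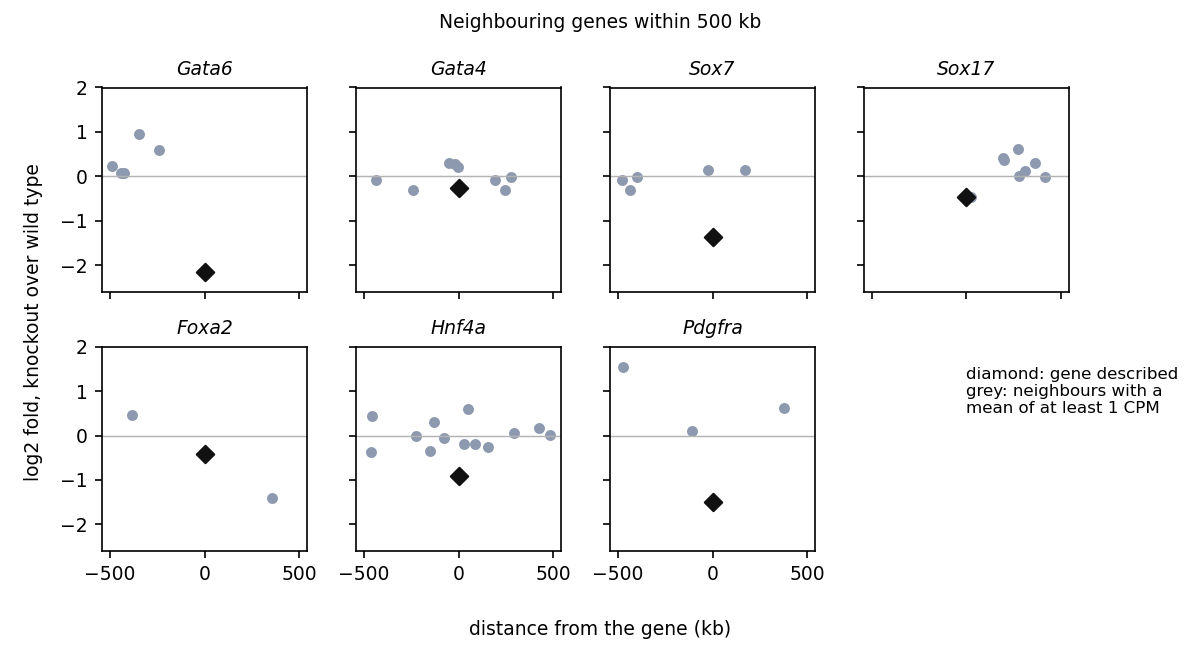
Log2 fold of neighbouring genes averaging at least 1 CPM against their distance (kb) from each of the 7 genes (black diamonds at 0). Gata6, Sox7 and Pdgfra lie under all of their own neighbours shown, and so does Hnf4a, whose neighbour R3hdml (-0.95) is under the 1 CPM floor and not drawn.

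By their 2 levels alone, the genes most like Gata6 were Efcab5 (7.58 and 0.761 CPM), the protocadherin gene Pcdh7 (4.20 and 0.942 CPM) and Rpph1, the RNA of ribonuclease P (5.69 and 0.524 CPM). Those most like Pdgfra were Rimbp3 (18.1 and 5.86 CPM), the thymic regulator gene Aire (17.5 and 6.09 CPM) and Ankrd34a (18.5 and 6.24 CPM). Likeness was the distance in log2(CPM + 0.5) over the 2 libraries, which is 0.37 to 0.51 for the first set and 0.03 to 0.07 for the second. None of these 6 genes is on an endoderm list. None of the 7 genes shared an exon window with another place in the genome at up to 2 mismatches. An opposite-strand gene model covers 1.82% of the exon bases of Gata6, and the use of strand in counting is likewise unknown.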

How the data were processed

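Total RNA was sequenced from 1 wild-type and 1 Setd2 knockout library, and each table column was taken to its group by its name. The tools named in the submitters' processing notes are CASAVA 1.6.0 and TopHat 1.0.13, and the build is mm9. Their roles are not stated. The deposited values, RPKM per the file headers, were read as log2(x + 1), with x in units of 76 sequenced bases, since 85.9% and 85.7% of values of x above 0 and under 200 were whole multiples of 1 base within 0.05. The step by which the authors made these log2 values and the counting of introns and strand are not given in the sources used here.

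Values of x were scaled to CPM, and where rows shared a symbol, the one with the highest mean was kept. Ratios have exact conditional binomial 95% intervals on rounded read equivalents, and levels exact Poisson intervals (scipy 1.17.1). Folds used a pseudocount of 0.5 CPM, which understates those of low genes, and a floor of 1 CPM on the mean. Exons came from GENCODE on the same assembly, 0 rows ended beyond their chromosome, and 20 exon windows per gene were aligned with minimap2 2.31.

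The genes, lists and rules were chosen with earlier results of these data known. Named genes are the 7 genes, Setd2, the family relatives, up to 4 genes per list with the largest absolute fold, neighbours, and the 3 genes nearest in level to Gata6 and Pdgfra. Some genes under that rule are not reported here. Genes named outside that rule serve as markers or controls of the samples (Ddx3y, Pou5f1, Sox2) or as defining genes of a list, and were picked with their values known. The alternatives were other pseudocounts, floors, thresholds, scalings, summed rows, a wider distance and leaving out chromosome 8.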

Additional observations from a re-analysis of the deposited data

How the results depend on the processing

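No paired analysis was possible because neither genotype has a second library, and leaving one out was likewise impossible. All 42 recomputed log2 folds of the 7 genes stayed below 0 under the other pseudocounts, the 3 rescalings of the knockout library and summed rows. The rescalings moved these folds by 0.0012 to 0.05. The pseudocount mattered most for low genes: at 0.1 CPM the log2 fold was -2.53 for Gata6, -1.71 for Sox7, -1.30 for Hnf4a, -0.83 for Sox17 and -1.31 for Foxa2, and at 1 CPM it was -1.84 for Gata6, -1.09 for Sox7, -0.67 for Hnf4a, -0.30 for Sox17 and -0.23 for Foxa2. Hnf4a and Foxa2 thus passed 2-fold only at 0.1 CPM. The number of the 7 genes at least 2-fold lower was 1 with a floor of 5 CPM, where fewer genes are compared, and 1 at a 3-fold threshold, against 3 as reported. For the 4 endoderm lists together, 16 genes were lower at 1.5-fold and 1 at 3-fold, against 8, and with no floor 1 gene was higher. The median of these lists without chromosome 8 was -0.33, and that of the receptor list alone -0.97. Under each of the 3 rescalings 1 endoderm transcription factor gene and 2 secreted product genes were lower, against 0 and 1. Within 1000 kb, 3 neighbours were lower and 2 higher, and at a pseudocount of 0.1 CPM 2 were higher. Depth limits Foxa2 most: 1 read equivalent stood for 0.0178 CPM in wild-type cells against 0.0192 CPM in knockout cells.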

Other observations

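Markers of trophectoderm and of mesendoderm were read as well, and most of those over 1 CPM were higher in the knockout library, 8 of 10 and 4 of 6. Of all 13523 genes compared, 7624 were higher. The lowest log2 folds in these lists were -0.41 for Tead4 and -0.22 for Chrd, 2 genes chosen for their values. Of the 10 trophectoderm markers averaging at least 1 CPM, 0 were at least 2-fold lower and 1 higher, with a median log2 fold of 0.38. That gene was Cdx2, the trophectoderm homeobox gene, at 0.539 CPM in wild-type cells against 2.80 CPM in knockout cells. The keratin genes Krt18 and Krt8 were at 10.3 and 16.9 CPM and at 6.26 and 10.4 CPM, with 70% of the windows of Krt8 shared, and Esx1 was at 3.38 and 6.53 CPM. Of 6 mesendoderm and definitive endoderm markers over 1 CPM, 0 were at least 2-fold lower and 1 higher, with a median of 0.27. The higher gene was T, the brachyury gene of the primitive streak, at 0.470 and 3.10 CPM. Eomes was at 7.02 and 8.83 CPM, Nodal at 44.3 and 54.9 CPM and Cxcr4 at 1.55 and 1.92 CPM. Without their knockout level Cdx2 and T would lie under 1 CPM, so the counts and medians rest partly on that.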
